A study of Mus musculus with 19 samples.

Results

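The genes described here are 10 mouse genes whose products bind fatty acids inside the cell or bring them into it. They are the fatty acid binding proteins Fabp1, Fabp2, Fabp4, Fabp5 and Fabp7, the surface receptor Cd36, the fatty acid transport proteins Slc27a2 and Slc27a4, the enzyme lipoprotein lipase (Lpl) and the very low density lipoprotein receptor (Vldlr). They were picked by symbol, and all 10 were found among the 55421 genes of the deposited count table. RNA was sequenced from liver of adult male C57BL/6 mice, either mutants or their littermate controls. The mutants' transgene encodes c-Jun joined to Fra-2 as 1 AP-1 dimer. Doxycycline keeps it off, and both genotypes lost the drug at weaning, when they were 3 weeks old. The 5 groups were 3 mutants and 6 controls taken 2 months after the withdrawal, and 4 tumours, 3 samples of mutant liver without visible tumour (periT) and 3 controls taken 9 months after it. The tumours and the periT samples came from the same 3 mutants, and mutant 1 gave 2 tumours, called 1a and 1b here. The promoter that drives the transgene is not given in the sources used here, and all libraries of 1 time come from the same sequencing run.

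Fatty acid binding proteins are small carriers that hold a fatty acid in the cytosol and pass it on to membranes, mitochondria, peroxisomes and nuclear receptors. FABP1 is the main carrier of hepatocytes, FABP2 that of the gut lining, FABP4 that of fat cells, macrophages and capillary endothelium, FABP5 that of skin and several other tissues, and FABP7 that of glia. At the cell surface, lipoprotein lipase frees fatty acids from circulating triglycerides, VLDLR holds lipoproteins, CD36 passes fatty acids through the membrane, and the SLC27 proteins join them to coenzyme A as they enter. Fabp1, Slc27a2 and Cd36 are well known targets of the nuclear receptor PPARα, which acts as a sensor of fatty acids in liver.

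The total count, in units of 1000000, ran from 15.7 to 18.8 in the 2-month mutants, 14.3 to 17.45 in the 2-month controls, 19.5 to 21.6 in the tumours, 18.98 to 22.1 in periT and 19.9 to 20.9 in the 9-month controls. Levels are in CPM, a gene's count scaled to its library's total with TMM factors over the 19 libraries, and every n counts animals. Log2 changes carry their standard error, and the adjusted p values are those of edgeR's quasi-likelihood test, Benjamini-Hochberg adjusted across the genes tested. A gene was called when that p was under 0.05. Fosl2, the gene of Fra-2, ran from 410 to 939.6 CPM in all mutant samples, against 8.35 to 19.7 CPM in all controls. Jun ran from 338.5 to 788 CPM in mutant samples, against 10.5 to 39.6 CPM in 8 of the 9 controls. The 9-month control 1 stood apart with 384 CPM of Jun. Albumin (Alb), the defining product of hepatocytes, was present at 26990 to 64800 CPM in mutant samples, against 84840 to 106100 CPM in controls. The 6 controls at 2 months fell into 2 sets: their first principal component, over 12414 genes without the 10 members, parted controls 1 to 3 (16.6 to 22.3) from controls 4 to 6 (-22.9 to -11.9) and held 38.7% of their variance. Called genes were 3067 higher and 2816 lower at 2 months, 1971 and 1622 in tumours, and 2599 and 2410 in periT. With library size alone in place of TMM the same counts were 5445 and 1562, 4664 and 818, and 5706 and 1178, and the median gene moved to 0.29, 0.48 and 0.42 on the log2 scale, so that all changes below are relative to the bulk of genes. All 10 members passed the filter on low counts in every comparison.

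**Figure D1:**
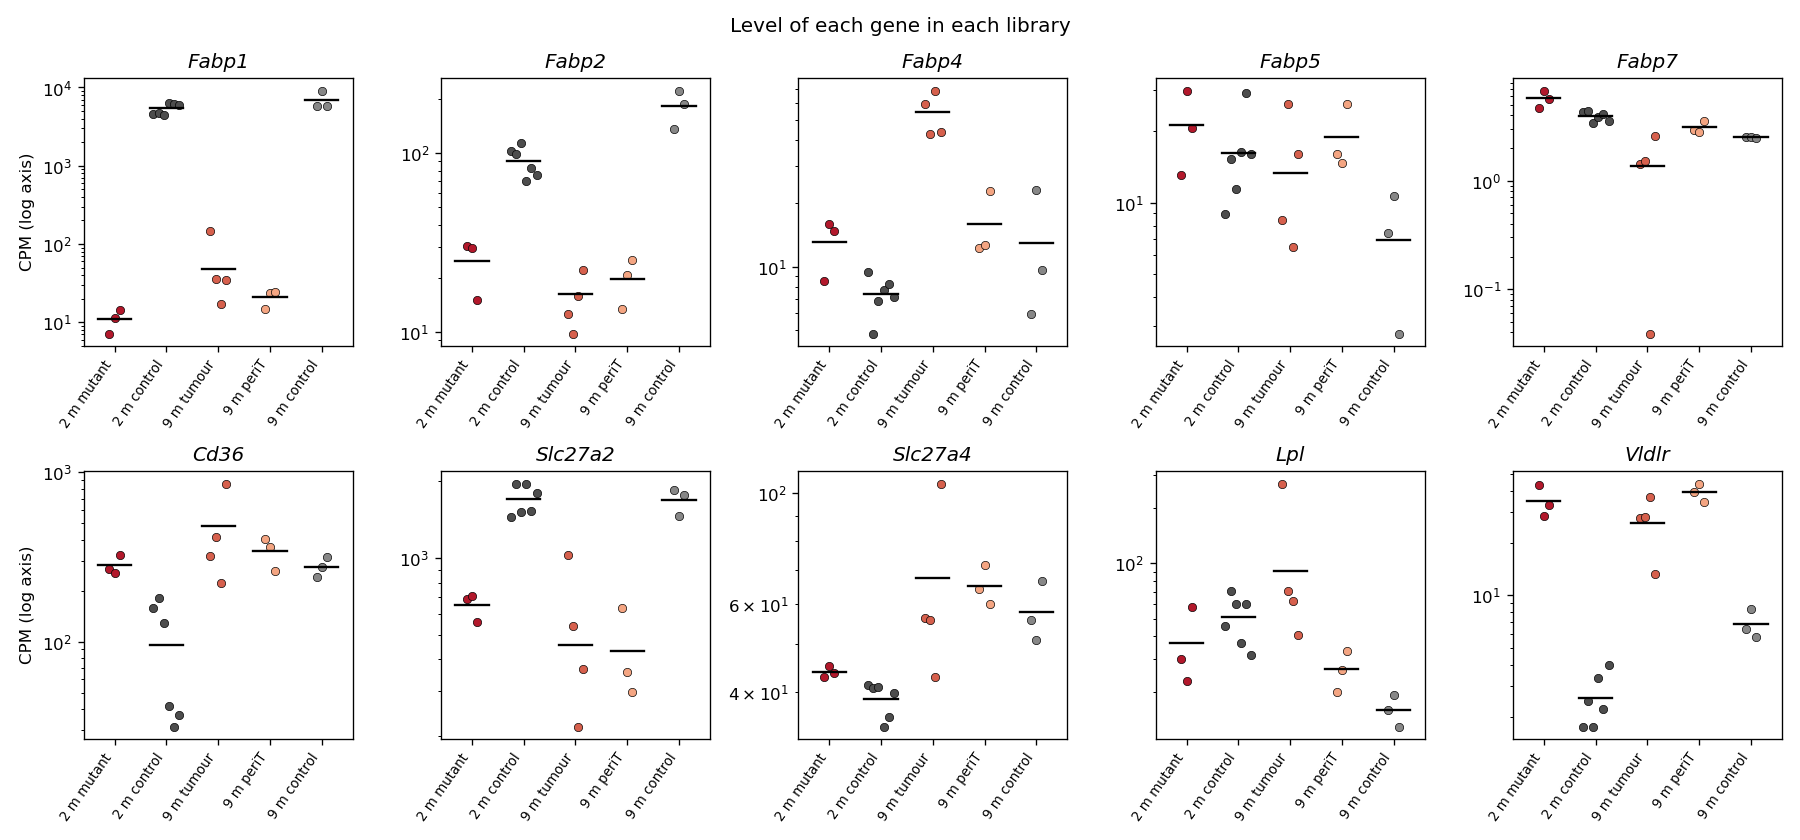
Level of each of the 10 genes in each library, in CPM on a log axis with its own range in each panel; a point is a library and a bar the mean over animals. Fabp1, Fabp2 and Slc27a2 lie below the controls of their time in all mutant samples, Vldlr lies above them, and Cd36 splits the 2-month controls into a set at 128 to 181 CPM and a set at 31.4 to 41.7 CPM.

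The comparison of mutants with controls asks which carriers and uptake proteins differ with the transgene. At 2 months 4 of the 10 genes were higher in mutants and 3 lower, against 22.3% of the 13773 genes tested that were higher and 20.4% that were lower. In tumours against 9-month controls 3 were higher and 3 lower, against 13.8% and 11.3% of 14332 genes. In periT against the same controls 3 were higher and 3 lower, against 18.1% and 16.8% of 14352 genes. The median log2 change of the 10 genes was 0.29 at 2 months, 0.47 in tumours and 0.28 in periT, against 0.01, 0.01 and -0.01 over all genes tested. Fabp1, Fabp2, Slc27a2 and Vldlr were called in all these 3 comparisons, the first 3 lower and Vldlr higher. The tumour and periT comparisons share their 3 controls. Without the 9-month control 1 the calls fell to 2 in tumours (Fabp1 and Fabp2) and to 4 in periT (Fabp1, Fabp2, Slc27a2 and Vldlr). The same members were left without control 3, and without control 2 the calls were 4 in tumours and 6 in periT. Over all genes the tumour calls fell from 3593 to 1973 without control 1, 2188 without control 2 and 1419 without control 3. In periT they fell from 5009 to 4590, 4870 and 3620 in the same order. The members called at 2 months were 5 without controls 4 to 6 and 6 without controls 1 to 3.

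**Figure D2:**
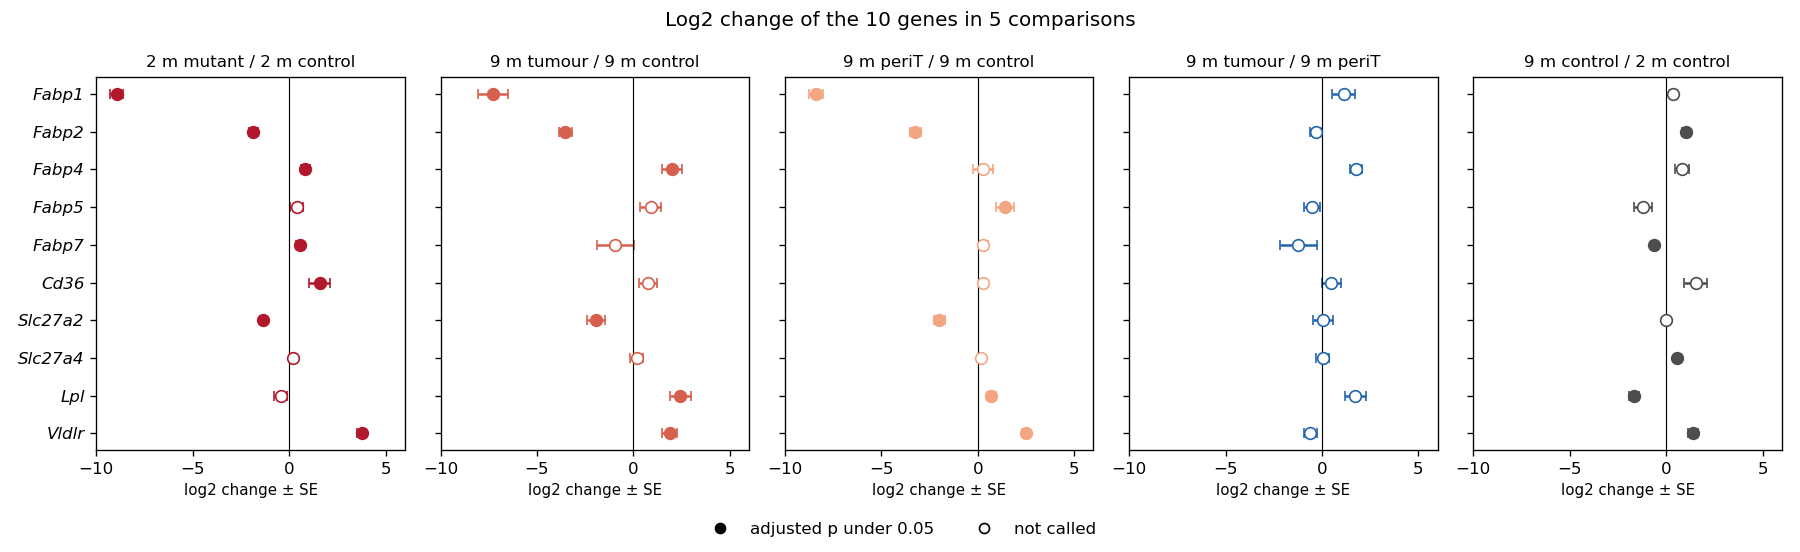
Log2 change of each gene with its standard error in 5 comparisons, each panel naming the group above the line first; filled points have an adjusted p under 0.05. Fabp1 lies near -9 to -7 in the 3 comparisons of mutant tissue with controls, and no point is filled between tumours and periT.

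Fabp1 showed the largest change of the 10 genes in each of the 3 comparisons with controls. It stood at 7.13, 11.2 and 14.2 CPM in the 2-month mutants, against 4499 to 6402 CPM (median 5332) in the 6 controls. Every mutant library lay far below every control, and the gene was 494-fold lower (log2 change -8.95 ± 0.32, adjusted p = 7.99e-09, n = 3 and 6). At 9 months it was at 148, 35.9, 16.9 and 34.5 CPM in tumours 1a, 1b, 2 and 3, and at 14.9, 23.8 and 24.6 CPM in periT of mutants 1, 2 and 3, against 5814, 9130 and 5759 CPM in controls 1, 2 and 3. Tumour 1a was the highest of the mutant samples, and no mutant sample came within reach of a control. The log2 change was -7.26 ± 0.77 in tumours (154-fold lower, adjusted p = 0.00158) and -8.38 ± 0.37 in periT (333-fold lower, adjusted p = 5.46e-06). In whole tissue, fewer cells of a type and less RNA in each of them cannot be told apart. Albumin averaged 30630 ± 4628 CPM in mutants at 2 months and 101300 ± 7571 CPM in controls (SD, n = 3 and 6), and the part of cell numbers in the level of Fabp1 was not tested.

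Fabp2 was lower in all mutant tissue as well. It had 30.2, 29.6 and 15.1 CPM in 2-month mutants, against 69.95 to 115 CPM (median 91.0) in controls. The ranges did not overlap, and the change was -1.86 ± 0.24 on the log2 scale (adjusted p = 0.000142). Tumours 1a, 1b, 2 and 3 had 12.6, 9.81, 15.9 and 22.3 CPM, and periT 13.5, 20.9 and 25.2 CPM, against 136, 224 and 190 CPM in 9-month controls. Both tissues lay wholly below the controls, with a log2 change of -3.54 ± 0.34 in tumours (adjusted p = 0.00111) and -3.23 ± 0.29 in periT (adjusted p = 0.000112). In GENCODE M21 on build GRCm38, Fabp1 (ENSMUSG00000054422.7) lies at 71199827 to 71205023 on chromosome 6, and Fabp2 (ENSMUSG00000023057.5) at 122895072 to 122899506 on chromosome 3, both on the forward strand. Fabp2 lies inside the longer antisense gene 4933405D12Rik, with 0 bases shared between exons.

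The promoters of the 4 genes called in all 3 comparisons are shown because these genes kept their direction in every mutant tissue. Each line gives the 250 bases before a start site that RefSeq lists on build GRCm38.p6, on the forward strand, 5′ to 3′, and capitals mark the hexamer AGGTCA or its reverse complement TGACCT, the core element of PPAR and related nuclear receptors. The windows are chr6:71199629-71199878 for Fabp1, chr3:122894822-122895071 for Fabp2, chr2:126552774-126553023 for Slc27a2 and chr19:27216234-27216483 for Vldlr. RefSeq lists another start site for Vldlr, whose window (chr19:27216770-27217019) is not printed and does not hold the hexamer either.
Fabp1: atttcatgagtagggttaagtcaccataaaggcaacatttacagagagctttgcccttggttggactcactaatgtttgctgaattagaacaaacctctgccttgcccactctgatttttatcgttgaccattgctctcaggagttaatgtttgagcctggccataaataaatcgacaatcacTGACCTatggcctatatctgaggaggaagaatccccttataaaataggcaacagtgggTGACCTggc
Fabp2: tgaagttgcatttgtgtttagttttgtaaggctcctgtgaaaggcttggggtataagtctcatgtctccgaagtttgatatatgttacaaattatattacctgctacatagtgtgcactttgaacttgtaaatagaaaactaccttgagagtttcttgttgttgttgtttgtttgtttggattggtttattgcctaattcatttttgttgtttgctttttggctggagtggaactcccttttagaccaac
Slc27a2: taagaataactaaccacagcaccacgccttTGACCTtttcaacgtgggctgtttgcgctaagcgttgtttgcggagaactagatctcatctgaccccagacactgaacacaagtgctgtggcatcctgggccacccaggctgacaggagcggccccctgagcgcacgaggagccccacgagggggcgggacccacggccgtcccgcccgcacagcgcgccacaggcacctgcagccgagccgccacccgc
Vldlr: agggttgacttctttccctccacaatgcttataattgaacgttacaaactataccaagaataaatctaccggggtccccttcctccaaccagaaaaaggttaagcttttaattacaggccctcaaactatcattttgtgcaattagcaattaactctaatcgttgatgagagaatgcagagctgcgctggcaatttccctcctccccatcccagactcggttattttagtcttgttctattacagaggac
The Fabp1 promoter holds the hexamer at positions -67 to -62 and -9 to -4 from its start site, both on the reverse strand, and the Slc27a2 promoter holds it at -220 to -215. GENCODE M21 starts both genes further upstream, so that the Slc27a2 window lies wholly inside the annotated gene, as does the end of the Fabp1 window with the hexamer at -9 to -4. Of 32851 RefSeq promoters, searched on both strands from 250 bases before to 50 after the start site, 16.3% hold it. Among the 7 members with a promoter in the table it was also in those of Fabp7 and Cd36. At -67 to -55 Fabp1 also holds 2 copies of the hexamer 1 base apart with at most 1 mismatch, the arrangement that PPARα binds with RXR, found in 0.554% of promoters and in no other member; the search with a mismatch was added after that sequence was seen. The AP-1 element TGACTCA was in none of the members' windows and in 5.2% of all promoters. Fabp4, Fabp5 and Lpl have no entry in the table.

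The other 3 binding proteins were far less abundant in control liver and moved less. Fabp4, the carrier of fat cells, capillary endothelium and macrophages, had 8.59, 15.9 and 14.8 CPM in 2-month mutants, against 4.79 to 9.46 CPM (median 7.49) in controls. Mutant 1 lay within the range of the controls, and the log2 change was 0.83 ± 0.22 (adjusted p = 0.0113). Tumours 1a, 1b, 2 and 3 had 59.1, 43.0, 68.9 and 43.9 CPM and periT 12.3, 12.7 and 22.8 CPM, against 5.97, 23.1 and 9.61 CPM in 9-month controls. All tumours lay above all other samples of the study, whereas periT and its controls overlapped. The log2 change was 2.01 ± 0.51 in tumours (4.03-fold higher, adjusted p = 0.0326) and 0.27 ± 0.51 in periT (adjusted p = 0.717). Without the 9-month control 1 or 3, or without tumour 2, the tumour change had an adjusted p of 0.0622, 0.121 or 0.0711. At 2 months the call was lost without mutant 2 (adjusted p = 0.0641), without mutant 3 (0.0554) and without controls 4 to 6 (0.0687).

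Fabp5, the epidermal form, had 13.1, 29.7 and 20.7 CPM in 2-month mutants, against 8.93 to 29.2 CPM (median 15.7) in controls, and the groups overlapped (0.40 ± 0.34, adjusted p = 0.383). At 9 months it had 8.47, 26.2, 6.50 and 16.1 CPM in tumours 1a, 1b, 2 and 3 and 16.1, 14.8 and 26.1 CPM in periT, against 7.46, 10.7 and 2.79 CPM in controls. Only the periT samples lay wholly above the controls (1.42 ± 0.45, adjusted p = 0.0447), and that call was lost when any of 5 of the 6 libraries was left out, with adjusted p from 0.0560 to 0.130. The tumour value was 0.89 ± 0.56 (adjusted p = 0.282). Fabp7, the glial form, was the least abundant, with 4.67, 6.76 and 5.71 CPM in 2-month mutants, against 3.37 to 4.37 CPM (median 4.00) in controls. The mutants lay just above the controls (0.55 ± 0.17, adjusted p = 0.0235), and leaving out controls 1 to 3 gave an adjusted p of 0.0644, controls 4 to 6 one of 0.127, mutant 2 one of 0.128 and mutant 3 one of 0.0555. At 9 months Fabp7 had 1.41, 1.52, 0.0389 and 2.56 CPM in tumours 1a, 1b, 2 and 3, that of tumour 2 from 1 count, and 2.84 to 3.55 CPM in periT, against 2.46 to 2.55 CPM in controls, and neither tissue was called (adjusted p = 0.508 in tumours and 0.367 in periT). Of the glial markers tested (2 at 2 months and 3 in each 9-month comparison), Mbp, a myelin protein, was higher in mutants at 2 months (4.45), in tumours (4.44) and in periT (4.52 on the log2 scale), and no other marker of that list was called. The median log2 change of the glial markers tested was 2.02 at 2 months, -0.51 in tumours and -0.48 in periT. The summed level of the 6 markers listed, Mbp included, was 24.4 to 40.3 CPM in 2-month mutants and 2.68 to 4.50 CPM in controls, and its part in Fabp7 was not tested. Fabp4 (ENSMUSG00000062515.3, reverse strand) and Fabp5 (ENSMUSG00000027533.10, forward strand) lie close together at positions 10204088 to 10208576 and 10012548 to 10016607 of chromosome 3, and Fabp7 (ENSMUSG00000019874.11) spans 57784881 to 57788450 of chromosome 10. Fabp5 has near-identical copies elsewhere in the genome, and how reads were split between them is not given, so its level is uncertain; the annotated copy Fabp5l2 had 0 counts in all libraries.

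The make-up of the family differed with the fall of Fabp1. Divided by the length of the principal transcript, all FABP genes together had 88.7 ± 17.3 CPM per kb in 2-month mutants and 9867 ± 1583 in 2-month controls. The totals at 9 months were 180 ± 65.4 CPM per kb in tumours, 99.8 ± 26.2 in periT and 12690 ± 3541 in controls (SD, n = 3 each). Fabp1 made up 22.2% ± 6.73 of the family's CPM per kb in 2-month mutants and 98.7% ± 0.34 in 2-month controls (SD, n = 3 and 6), a difference that follows from its lower level. In the mutants Fabp2 held 29.9% ± 12.4, Fabp5 23.6% ± 4.98, Fabp4 16.3% ± 3.06 and Fabp7 8.02% ± 0.21 of the family. At 9 months the Fabp1 share was 43.1% ± 21.1 in tumours and 38.4% ± 4.97 in periT, against 98.3% ± 0.27 in controls (SD, n = 3 each). Fabp4 held 37.6% ± 18.8 of the family in tumours and 17.6% ± 2.82 in periT, against 0.106% ± 0.046 in controls. Fabp3, Fabp9 and Pmp2 had no count in any library, and Fabp6 and Fabp12 reached at most 0.0801 and 1.32 CPM. Of the retinoid carriers of the same family, Rbp7 was higher in tumours (4.16, adjusted p = 0.0144).

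**Figure D3:**
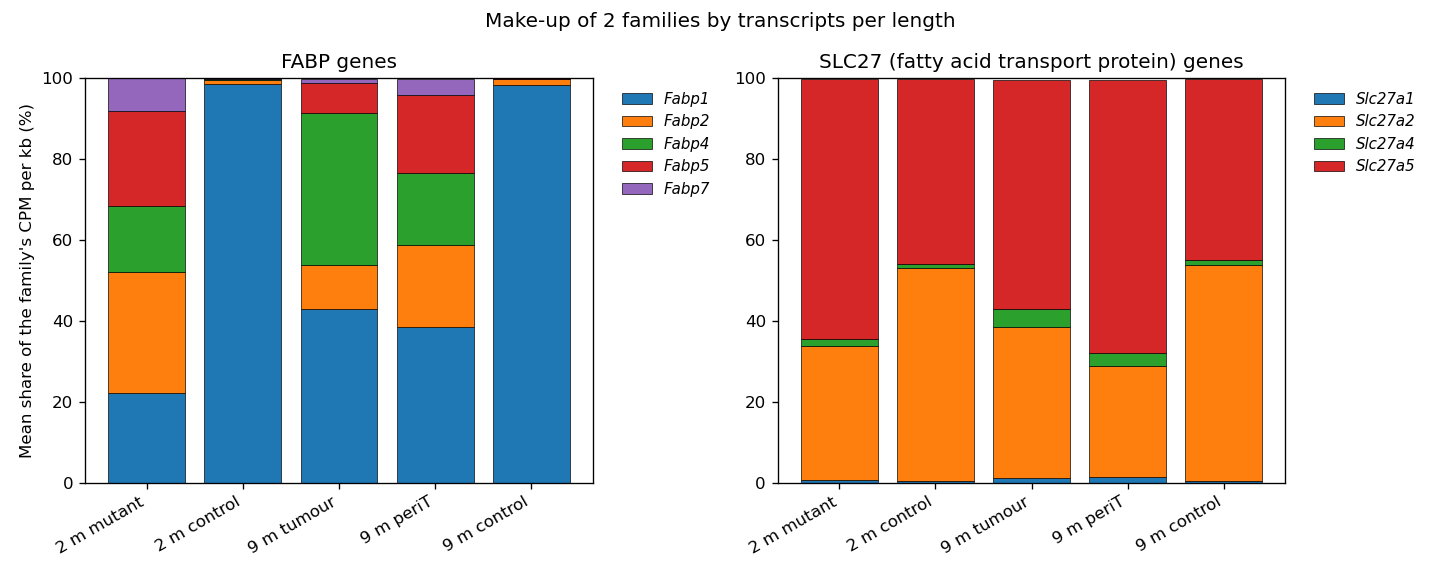
Mean share of each gene in the CPM per kb of the FABP family (left) and of the SLC27 family (right), in % over animals; genes under 0.5% in all groups are not drawn. Fabp1 fills 22.2% to 43.1% of the FABP bar in mutant tissue, against 98.7% and 98.3% in the 2-month and 9-month controls, and Slc27a5 takes a larger part than Slc27a2 in the mutant bars and a smaller one in the control bars.

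Of the proteins that take fatty acids up, Slc27a2 was lower in all mutant tissue, Slc27a4 was called in none with TMM scaling, and Cd36 was higher at 2 months. Slc27a2 (FATP2, a transporter and very long chain acyl-CoA synthetase of hepatocytes) had 688, 707 and 560 CPM in 2-month mutants, against 1450 to 1960 CPM (median 1662) in controls. Mutants and controls were well apart (-1.37 ± 0.15, adjusted p = 2.61e-05). At 9 months it had 1028, 541, 217 and 366 CPM in tumours 1a, 1b, 2 and 3 and 635, 355 and 298 CPM in periT, against 1847, 1467 and 1762 CPM in controls. Tumour 1a was again nearest to the controls, yet below all of them. The log2 change was -1.96 ± 0.46 in tumours (adjusted p = 0.0226) and -2.00 ± 0.29 in periT (adjusted p = 0.00113). In tumours the adjusted p rose to 0.0603 to 0.0761 when any 9-month control was left out, 0.067 without tumour 1b and 0.0546 without tumour 3. Slc27a2 (ENSMUSG00000027359.16) spans positions 126552407 to 126588243 of chromosome 2 on the forward strand. Its exons share 419 bases with the gene Gm26697 on the other strand, and the strand setting of the counting is not given, so that reads of the pair may be mixed.

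Slc27a4 (FATP4, ENSMUSG00000059316.2, positions 29802634 to 29817522 of chromosome 2) had 42.8, 45.0 and 43.8 CPM in 2-month mutants, against 34.1 to 41.4 CPM (median 40.3) in controls. Mutants lay above the controls by a small step that was not called (0.19 ± 0.08, adjusted p = 0.0949). At 9 months it had 42.9 to 104 CPM in tumours and 60.0 to 71.6 CPM in periT, against 50.8 to 66.8 CPM in controls, and the groups overlapped (adjusted p = 0.726 in tumours and 0.442 in periT). With library size alone Slc27a4 was called higher at 2 months (0.46, adjusted p = 0.000944) and in periT (0.59, adjusted p = 0.0106). In the whole SLC27 family, Slc27a5 (FATP5, the bile acid CoA ligase of hepatocytes) had 994 ± 127 CPM in 2-month mutants and 1158 ± 163 CPM in controls and was not called (SD, n = 3 and 6). Its 9-month level was 493 ± 60.7 CPM in tumours and 799 ± 112 CPM in periT, against 1123 ± 209 CPM in controls (SD, n = 3 each), and it was lower in tumours (-1.24, adjusted p = 0.0128) and not called in periT (-0.51, adjusted p = 0.0657). Its share of the family's CPM per kb was 64.4% ± 1.76 in 2-month mutants and 45.9% ± 5.35 in controls (two-sided exact permutation test over 84 splits, p = 0.0119, the smallest it can give, n = 3 and 6). The shares at 9 months were 56.7% ± 15.1 in tumours (p = 0.4) and 67.6% ± 4.57 in periT (p = 0.1), against 44.8% ± 1.96 in controls, by the same exact test over 20 splits, which cannot give a p below 0.1. Slc27a2 held nearly all of the rest, with 33.15% ± 1.66 in 2-month mutants and 52.8% ± 5.35 in controls (SD, n = 3 and 6). The larger share of Slc27a5 thus follows from the lower level of Slc27a2, and the test gives no separate result on Slc27a5. Of 8 other transporters and acyl-CoA synthetases tested, 2 were higher and 1 lower at 2 months, 1 higher and 2 lower in tumours, and 2 higher and 1 lower in periT. Acsl1, the main long chain acyl-CoA synthetase of liver, was lower (-1.75 at 2 months, -2.83 in tumours and -2.23 in periT on the log2 scale). Acsl4, which prefers arachidonic acid, was higher (1.74, 1.52 and 1.94).

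Cd36 (fatty acid translocase, ENSMUSG00000002944.15, positions 17781690 to 17888801 of chromosome 5, reverse strand) had 270, 256 and 325 CPM in 2-month mutants, against 31.4 to 181 CPM (median 85.0) in controls. All mutants lay above all controls, and the log2 change was 1.57 ± 0.55 (2.98-fold higher, adjusted p = 0.0412). The controls were themselves split, with 157, 181 and 128 CPM in controls 1 to 3 and 41.7, 31.4 and 36.7 CPM in controls 4 to 6, the same sets that the first principal component parted. Against controls 1 to 3 alone the change was 0.87 (adjusted p = 0.00493), and against controls 4 to 6 alone it was 2.96 (adjusted p = 6.09e-06), an alternative chosen after seeing the data. Leaving out mutant 1, 2 or 3 gave an adjusted p of 0.0943, 0.0841 or 0.13, and leaving out control 4 or 6 one of 0.0655 or 0.0586. The labels give no difference between these sets of controls, and the part of the split in the change was not tested beyond these values. At 9 months Cd36 had 319, 415, 223 and 859 CPM in tumours 1a, 1b, 2 and 3 and 406, 362 and 261 CPM in periT, against 240, 275 and 315 CPM in controls. Both tissues overlapped the controls (0.76 ± 0.48, adjusted p = 0.283, in tumours and 0.28 ± 0.20, adjusted p = 0.3, in periT). Without tumour 3 the tumour value was 0.07.

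At the lipoprotein, Vldlr was higher in all mutant tissue and Lpl was higher at 9 months. Vldlr, which binds very low density lipoprotein and reelin and is scarce in normal liver, had 43.2, 28.7 and 33.0 CPM in 2-month mutants, against 1.76 to 3.98 CPM (median 2.34) in controls. Mutants and controls were far apart (3.77 ± 0.24, 13.6-fold higher, adjusted p = 5.35e-07). At 9 months it had 27.8, 28.3, 36.7 and 13.3 CPM in tumours 1a, 1b, 2 and 3 and 39.2, 43.9 and 34.2 CPM in periT, against 6.37, 8.32 and 5.75 CPM in controls. All mutant samples lay above the controls, with tumour 3 the lowest of them. The log2 change was 1.87 ± 0.38 in tumours (3.67-fold, adjusted p = 0.0136) and 2.49 ± 0.19 in periT (5.62-fold, adjusted p = 4.81e-05). In tumours the adjusted p was 0.0618 without control 1 and 0.066 without control 3. Vldlr (ENSMUSG00000024924.14) spans positions 27216484 to 27254231 of chromosome 19. The nearest relative in the receptor family, Lrp8, the other receptor of reelin, was also higher (4.01 at 2 months, adjusted p = 3.79e-05, 5.77 in tumours, adjusted p = 0.0165, and 4.84 in periT, adjusted p = 6.97e-05), at 1.87 to 3.37 CPM in 2-month mutants and 0 to 0.311 CPM in controls. Of 14 tested members of the list of other lipoprotein and scavenger receptors, 5 were higher and none lower at 2 months, 1 and 1 in tumours, and 5 and 1 in periT. With library size alone these counts were 8 and none, 2 and none, and 8 and none.

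Lpl (ENSMUSG00000015568.16, positions 68880491 to 68907448 of chromosome 8) had 30.2, 22.8 and 57.8 CPM in 2-month mutants, against 31.7 to 70.6 CPM (median 52.7) in controls, with overlap (-0.45 ± 0.31, adjusted p = 0.279). Without mutant 3, the highest of the mutants, it was lower (-0.91, adjusted p = 0.0434). At 9 months it had 271, 70.2, 62.1 and 40.7 CPM in tumours 1a, 1b, 2 and 3 and 20.0, 26.2 and 33.3 CPM in periT, against 15.8, 19.2 and 12.9 CPM in controls. Tumours lay above periT and periT above controls, without overlap. The log2 change was 2.43 ± 0.54 in tumours (5.37-fold higher, adjusted p = 0.0213) and 0.71 ± 0.23 in periT (1.63-fold higher, adjusted p = 0.0438). Without tumour 1a the tumour change was 1.80 (adjusted p = 0.00356), and without a 9-month control the adjusted p was 0.0618 to 0.0903. In periT the call was lost without control 1 or 3 and without periT 2 or 3, at adjusted p of 0.0903 to 0.151. Of 16 other lipases and regulators of lipoprotein lipase, none was higher and 3 were lower at 2 months, 1 was higher and 3 lower in tumours, and none was higher and 3 lower in periT. With library size alone the split turned at 2 months, with 6 higher and 2 lower, and was even in tumours (3 and 3) and in periT (2 and 2). Lipc, the hepatic lipase, was lower in all (-1.89, -3.31 and -1.67). The gene higher in tumours was Gpihbp1, the capillary protein that holds lipoprotein lipase (0.90, adjusted p = 0.0263), with 42.5 to 45.8 CPM in tumours and 12.4 to 15.95 CPM in periT, against 16.2 to 28.4 CPM in controls. Without the 9-month control 1 no gene of this list was higher in tumours.

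Between tumours and periT of the same mutants none of the 10 genes was called, against 2 of 14566 genes higher (0.0137%) and none lower (0%) by edgeR's quasi-likelihood test. At an unadjusted p under 0.05 that test found 1454 genes, DESeq2 called 442, limma voom called 0, and the fit with the animal as a block called 1. The level of Fabp4 in each tumour was above that in periT of its own mutant, with 59.1 and 43.0 against 12.3 CPM in mutant 1, 68.9 against 12.7 CPM in mutant 2 and 43.9 against 22.8 CPM in mutant 3. The log2 difference was 1.75 ± 0.31 (unadjusted p = 0.000766, adjusted p = 0.219 by edgeR's quasi-likelihood test), and the adjusted p ran from 9.82e-05 to 0.888 under other settings. The level of Lpl was likewise above that of periT in each tumour, with 271 and 70.2 against 20.0 CPM, 62.1 against 26.2 CPM and 40.7 against 33.3 CPM. The difference was 1.73 ± 0.54 (unadjusted p = 0.0177, adjusted p = 0.395, which ran from 0.0307 to 0.977), and it was 1.09 without tumour 1a. DESeq2 called both, a filter-free edgeR fit and a fit over all 5 groups called Fabp4, and the fit with the animal as a block called neither (adjusted p = 0.346 and 0.52). Esm1, an endothelial gene, was the member of the capillary list that was called here (3.48, adjusted p = 0.0364). Capillary markers summed to 208 to 323 CPM in tumours and 102 to 132 CPM in periT, with no marker at 0 in tumours, and their part in Fabp4 and Lpl was not tested. The levels of Vldlr, Fabp2 and Fabp7 were below those of periT of the same mutant in each tumour. For Vldlr they were 27.8 and 28.3 against 39.2 CPM in mutant 1, 36.7 against 43.9 CPM in mutant 2 and 13.3 against 34.2 CPM in mutant 3 (-0.61 ± 0.35, adjusted p = 0.636). For Fabp2 they were 12.6 and 9.81 against 13.5 CPM, 15.9 against 20.9 CPM and 22.3 against 25.2 CPM (-0.30 ± 0.32, adjusted p = 0.832). For Fabp7 they were 1.41 and 1.52 against 2.95 CPM, 0.0389 against 2.84 CPM and 2.56 against 3.55 CPM (-1.22 ± 0.97, adjusted p = 0.761). With the animal as a block these 3 genes had adjusted p of 0.458, 0.517 and 0.639. The 8 members other than Fabp4 and Lpl had log2 differences from -1.22 (Fabp7) to 1.13 (Fabp1), and that of Fabp1 was 0.44 without tumour 1a.

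The controls themselves differed between the times, and time and sequencing run cannot be told apart. Of the 10 genes 3 were higher and 2 lower in 9-month controls than in 2-month controls, against 7.29% and 4.64% of 13545 genes tested. Vldlr (1.41 ± 0.26, adjusted p = 0.00656), Fabp2 (1.02 ± 0.18, adjusted p = 0.00449) and Slc27a4 (0.58 ± 0.11, adjusted p = 0.00592) were higher at 9 months. Lpl (-1.66 ± 0.26, adjusted p = 0.00275) and Fabp7 (-0.64 ± 0.17, adjusted p = 0.0343) were lower. Without the 2-month controls 4 to 6 the calls of Fabp2 (adjusted p = 0.0502), Slc27a4 (0.0708) and Fabp7 (0.162) were lost, and Cd36 was called (0.85, adjusted p = 0.0301). Without controls 1 to 3 the call of Fabp7 was lost (adjusted p = 0.101), and Cd36 was again called, at 2.91 (adjusted p = 8.02e-05). The call of Fabp7 was also lost when any of 8 of the 9 controls was left out, with adjusted p of 0.0506 to 0.111. Cd36 was above all 2-month controls in each 9-month control (1.53 ± 0.59, adjusted p = 0.13). Fabp1 (0.36 ± 0.18, adjusted p = 0.213) and Slc27a2 (-0.0047 ± 0.13, adjusted p = 0.985) were not called. The interaction asks whether the distance between mutant tissue and its own controls differs between the times. For tumours against 2-month mutants it was higher for Lpl (2.91 ± 0.64, adjusted p = 0.0301) and lower for Fabp2 (-1.65 ± 0.39, adjusted p = 0.0378) and Vldlr (-1.86 ± 0.46, adjusted p = 0.0441), against 0.891% and 1.73% of 14701 genes higher and lower. None of these 3 was called without the 2-month controls 1 to 3 or without controls 4 to 6, and leaving out any 1 of the 2-month mutants 1 and 2, the 2-month control 5 and the 9-month controls 2 and 3 also ended all 3 calls, with adjusted p of 0.052 to 0.134. For periT the interaction called no member by edgeR, against 0.462% and 1.05% of 14707 genes. There 3 members had an unadjusted p under 0.05 by edgeR, as did 1882 of all 14707 genes tested. The lowest of the members was 0.00129 for Vldlr (-1.27 ± 0.33, adjusted p = 0.0661). DESeq2 called 2 members and limma voom 0, against 534 and 181 of all genes.

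The genes around these members are given by list, to be read against the shares of all genes called that stand above. Of 28 PPARα targets tested, 5 were higher and 20 lower at 2 months, 1 and 22 in tumours, and 1 and 22 in periT, with median log2 changes of -0.95, -1.80 and -1.53 against 0.01, 0.01 and -0.01 over all genes. At 2 months the smallest adjusted p among them were those of the peroxisomal thiolase Acaa1b (-3.71), the peroxisomal enzyme Ehhadh (-1.32), the lipid droplet protein Fitm1 (-2.89) and the mitochondrial dehydrogenase Acadl (-1.62). Acot3, an acyl-CoA thioesterase, was higher at that time (4.22). In tumours Cyp4a14, a fatty acid hydroxylase, was at 0.441 to 0.600 CPM and in periT at 0.793 to 1.24 CPM, against 457 to 1098 CPM in 9-month controls. Without the 9-month control 1 the counts were none higher and 14 lower in tumours and 1 and 21 in periT, and at 2 months they were 4 and 20 without controls 4 to 6. With library size alone they were 7 and 16, 1 and 16, and 2 and 17. Of 16 PPARs, partners and hepatocyte factors, none was higher and 8 were lower at 2 months, none and 6 in tumours (none and 2 without the 9-month control 1), and 1 and 7 in periT. With library size alone they were 1 and 4, 1 and 3, and 4 and 4. Ppara itself was lower (-0.81, -0.98 and -0.66), as was Pparg (-1.76, -2.45 and -2.53), while Hnf4a averaged 825 ± 90.6 CPM in 2-month mutants and 739 ± 176 CPM in controls and was not called. Of the PPARγ targets, which include Fabp4, Cd36 and Lpl, 4 of 12 were higher and 2 lower at 2 months, 2 of 14 and 7 in tumours (none and 3 without the 9-month control 1), and 1 of 14 and 6 in periT. Those higher in tumours were the members Fabp4 and Lpl themselves, and the 1 higher in periT was Lpl. At 2 months the higher ones included Fabp4 and Cd36. Between the controls 15 of the 28 PPARα targets were higher at 9 months and none lower. Of 12 other intracellular lipid carriers, 3 were higher and 6 lower at 2 months, 1 and 5 in tumours, and 1 and 6 in periT, with Scp2, the sterol carrier of peroxisomes, lower in all (-0.68, -1.74 and -1.21). Of 16 clock genes none was higher and 3 were lower at 2 months. Dbp, a clock output gene, varied from 8.53 to 221 CPM among the 2-month controls and from 72.4 to 123 CPM among the mutants, and its part in Cd36 was not tested.

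**Figure D4:**
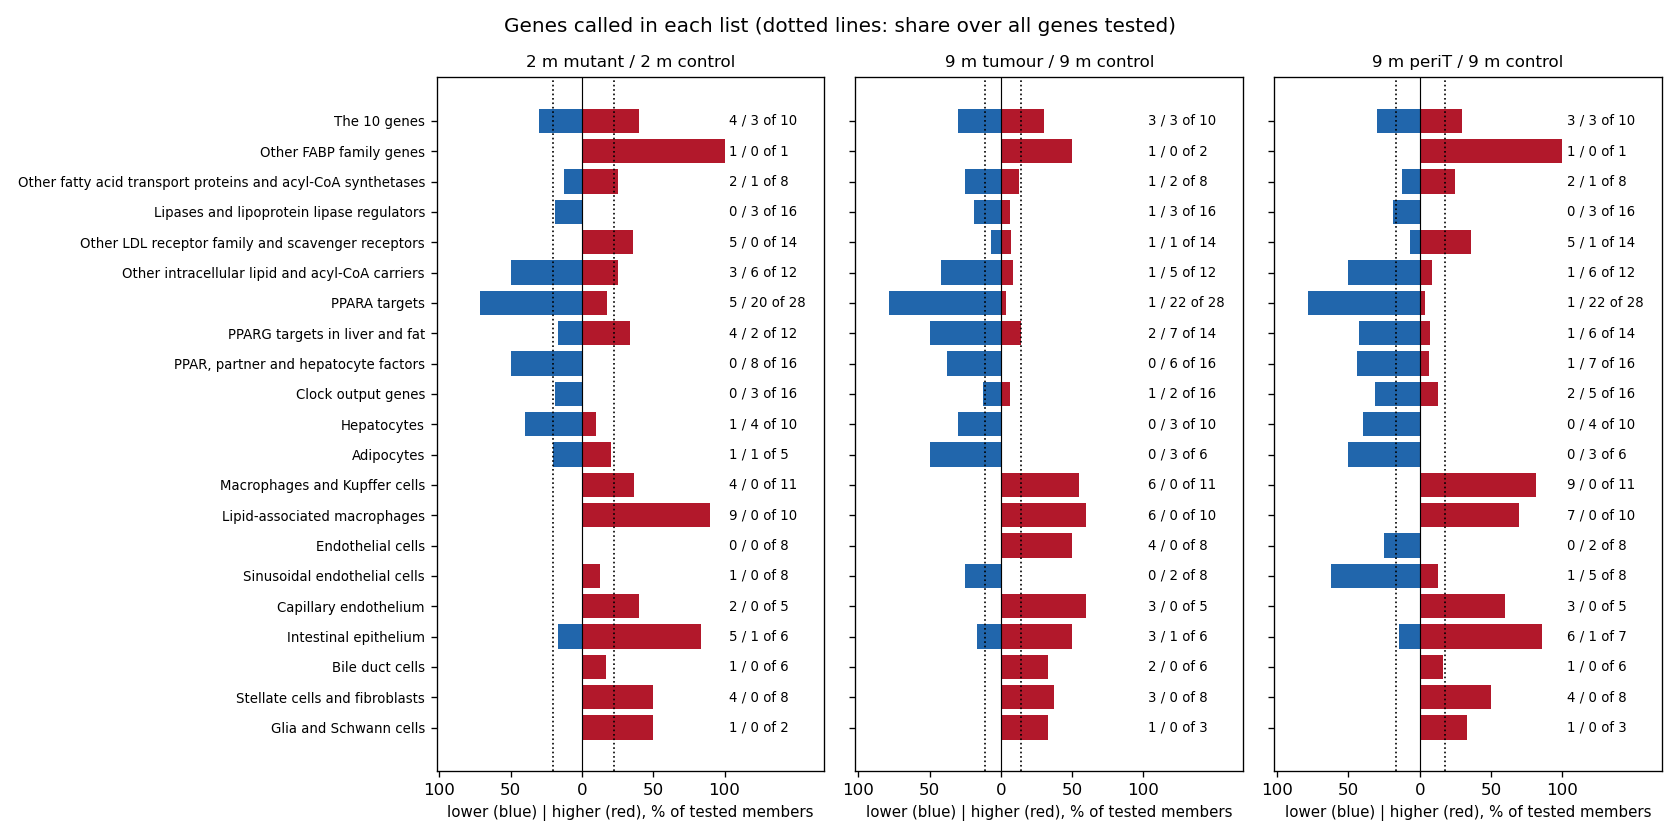
Share of each list's tested genes called higher (red, to the right) or lower (blue, to the left) in 2-month mutants, tumours and periT against their controls, with the counts as higher / lower of tested; dotted lines mark the share over all genes tested. The PPARα targets reach furthest to the left, with 20, 22 and 22 of 28 lower, and the markers of lipid-associated macrophages lie wholly to the right, with 9, 6 and 7 of 10 higher.

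Several of the genes are also made by cells other than hepatocytes, and markers of those cells were counted in the same comparisons. Of 10 hepatocyte markers 1 was higher and 4 lower at 2 months, none and 3 in tumours, and none and 4 in periT. Their median log2 change was -0.59 at 2 months. Their summed level was 48190 to 65560 CPM in 2-month mutants, against 115900 to 140100 CPM in controls. Alb alone averaged 30630 CPM of that sum in 2-month mutants and 101300 CPM in controls, so the sum largely follows 1 gene. Of 10 markers of lipid-associated macrophages, which express Fabp4, Fabp5, Cd36 and Lpl, 9 were higher at 2 months, 6 in tumours and 7 in periT, and none was lower, while Fabp5 and Lpl were not called at 2 months. Without the 9-month control 1 the count was 3 in tumours and 5 in periT, and without the 2-month controls 4 to 6 it was 6 at 2 months. Their sum was 1094 to 1540 CPM in 2-month mutants and 78.2 to 131 CPM in controls, and 900 to 4191 CPM in tumours and 1017 to 1131 CPM in periT, against 80.6 to 189 CPM in 9-month controls. Gpnmb, one of them, had 55.5 to 223 CPM in 2-month mutants and 0.211 to 0.587 CPM in controls. Trem2, another of them, was low in both, with overlap, at 1.00 to 4.63 CPM in 2-month mutants and 0.395 to 1.24 CPM in controls. Of 11 general macrophage and Kupffer cell markers 4, 6 and 9 were higher in the same order and none was lower, with 2 in tumours without the 9-month control 1 and 1 at 2 months without the 2-month controls 4 to 6, and with sums of 730 to 1252 CPM in 2-month mutants and 433 to 853 CPM in controls. Among capillary markers 2, 3 and 3 of 5 were higher, while sinusoidal markers counted 1 higher and none lower of 8 at 2 months, none and 2 in tumours, and 1 and 5 in periT (2 and none with library size alone). Endothelial markers counted none of 8 at 2 months, 4 higher in tumours and 2 lower in periT (3 higher with library size alone), stellate cell markers 4, 3 and 4 of 8 higher, and bile duct markers 1, 2 and 1 of 6 higher. Of the adipocyte markers 1 of 5 was higher and 1 lower at 2 months, and 3 of 6 were lower in tumours and in periT, and their sum was 310 to 795 CPM in 2-month mutants and 315 to 899 CPM in controls. Adipoq and Plin1, the defining genes of fat cells, were near 0 in every group. They had no count in 2-month mutants and stayed at or under 0.0389 CPM in tumours and periT. In the 2-month and 9-month controls Adipoq reached at most 0.0750 and 0.112 CPM, and Plin1 at most 0.391 and 0.115 CPM. Of intestinal markers 5 of 6 were higher and 1 lower at 2 months, 3 of 6 and 1 in tumours, and 6 of 7 and 1 in periT, with Vil1 at 50.5 to 119 CPM in 2-month mutants and at most 0.563 CPM in controls, whereas Fabp2, the intestinal carrier, was lower in all 3. Cdx2, the defining factor of gut epithelium, had no count in tumours, periT or any control, and at most 0.0584 CPM in 2-month mutants. The part of these cells in the levels of the 10 genes was not tested.

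The genes most like each member were sought among protein coding genes by the root mean square difference of centred log2 levels over 18 samples, the tumours of mutant 1 counting as 1. This was done for the 8 members whose group means spanned at least 2 on the log2 scale, which left out Fabp5 and Slc27a4. Nearest to Fabp1, at 0.88, was Hao1, the peroxisomal glycolate oxidase of liver, with 0.681 CPM in 2-month mutants and 378 CPM in controls, and then Elovl3 (1.11) and Cyp8b1 (1.19). Slc27a2 had the closest companions of the 8, Serpina1a (0.23), Acad11 (0.30) and Decr2 (0.31). Fabp2 was nearest to Gpr12 (0.45), Ebpl (0.46) and Apoa2 (0.48). Fabp4 was nearest to C1qtnf6 (0.42), Sparc (0.42) and Trp53i11 (0.43), and Sparc, a matrix protein, averaged 318 CPM in tumours and 105 CPM in periT, against 63.8 CPM in 9-month controls. Fabp7 was nearest to Cyp2d9 (0.33), Fpr1 (0.34) and Colec10 (0.34), and Cd36 to Sbk1 (0.57), Vat1 (0.62) and Fam102a (0.62). Lpl was nearest to Sox9 (0.47), Nid2 (0.49) and Chka (0.50), and Vldlr to Nrg1 (0.49), Syt12 (0.51) and St6galnac4 (0.58). Nrg1, a growth factor of the EGF family, had 10.1 CPM in 2-month mutants and 0.476 CPM in controls.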

How the data were processed

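Poly(A) RNA was made into strand-specific libraries, per the labels' protocols. The authors deposited whole-number counts per gene and library, used here unchanged. Per the submitters' processing notes, the tools were STAR 2.6.1a, RSEM, DESeq2 1.22.2 and bedtools 2.27.1 on GRCm38; no source used here says which tool did which step or with which strand setting, so counts may be rounded estimates. In all, 24684 of the 55421 genes had 0 counts throughout, and 54587 identifiers match GENCODE M21 with their version, those of the 10 members included.

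For each comparison the groups concerned were fitted in edgeR 4.0.16 (R 4.3.3) after its expression filter, with TMM scaling and a robust quasi-likelihood test, at a Benjamini-Hochberg adjusted p under 0.05. The members passed the filter in every comparison. Counts of tumours 1a and 1b were added up before the test, which left 15 animals in 18 samples. Levels per kb use the principal transcript. Alternatives were DESeq2 1.42.0, limma 3.58.1 (voom), 2 other scalings, no filter, 1 fit over all groups, a replicate block, unsummed tumours and left-out libraries.

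The members, the gene lists and the tests were chosen with earlier results of these data known. All members are named. Of the lists, at most 4 called genes with the smallest adjusted p, or any gene of a list of at most 16, are named; Acot3 and Cyp4a14 were chosen after their values were seen. Some genes of the lists enter the counts and are not reported by name here. Like genes have a mean of at least 5 CPM in a group and were compared on log2 of CPM plus 0.5. Tumour and periT numbers pair samples because they name the animal. Deviations from group means correlated at 0.0035 to 0.328 within animals and at -0.258 to 0.0706 between them. These correlations do not themselves show pairing, since periT and control libraries, which come from different animals, reached 0.364. No pair of libraries was identical. No source used here gives sampling or extraction days. A p-value sets a difference between groups against the spread between these samples, and counting error limits low values.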

Additional observations from a re-analysis of the deposited data

Results flagged for a closer look

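In 3 of 20 sets of values (the 10 genes in the 2-month controls and in the tumours, the groups large enough for the check) a single library stood far from the others of its group; chance alone flags about 1 group in 20. Tumour 1a had 148 CPM of Fabp1, and the gap to the next tumour was 0.854 of the group's range. Tumour 1a also had 271 CPM of Lpl, with a gap of 0.872 of the range. It was the tumour with the highest Slc27a2 as well (1028 CPM) and with the lowest Jun of the mutant samples (338 CPM), and it comes from the same mutant as tumour 1b, which had 35.9 CPM of Fabp1 and 70.2 CPM of Lpl. The 2-month control 5 had 29.2 CPM of Fabp5, with a gap of 0.631 of the range, and it had the lowest Dbp among the controls (8.53 CPM). Whether these values share a source was not tested.

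The effect in tumours differed from that in 2-month mutants, each against its own controls, for 3 genes by edgeR's interaction test. It was 2.91 higher for Lpl, 1.65 lower for Fabp2 (-1.65) and 1.86 lower for Vldlr (-1.86) on the log2 scale. The 9-month controls differed from the 2-month controls in the same 3 genes (-1.66, 1.02 and 1.41), and how far the interaction rests on the controls cannot be told apart from time and run.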

How the results depend on the processing

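Of 1330 log2 values of the members under the alternatives, 1158 kept their direction and their side of the threshold, 107 lost a call, 25 gained one and 40 changed sign, none of these with an adjusted p below 0.202. Fabp1, Fabp2, Slc27a2 and Vldlr were called at 2 months in all 18 alternatives and in periT in all 14, and Fabp1 and Fabp2 in tumours in all 16. The members called were 4 to 7 at 2 months when 1 library was left out and 2 to 6 in tumours. With library size alone 5 members were higher and 3 lower at 2 months, 3 and 3 in tumours, and 6 and 3 in periT. In periT Cd36 (0.71, adjusted p = 0.0145) and Fabp7 (0.72, adjusted p = 0.0394) were then called higher. Between tumours and periT they were 2 by DESeq2, 1 without the filter and 1 in the fit over all groups. Between the controls they were 3 in that fit, 2 with the replicate block and 3 without the 2-month controls 4 to 6. For the periT interaction they were 2 by DESeq2, 1 without the 2-month controls 4 to 6, 1 without controls 1 to 3, and 0 to 1 when 1 library was left out. For the tumour interaction they were 1 by voom, 0 without the filter, 0 without the 2-month controls 4 to 6, 0 without controls 1 to 3, and 0 to 3 when 1 library was left out. The cause of these shifts was not tested.

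The values that changed sign follow, with their range when 1 library was left out. Fabp4 in periT ran from -0.082 to 1.01, Slc27a4 in tumours from -0.25 to 0.44 and Cd36 between tumours and periT from -0.24 to 0.82. Between tumours and periT, Slc27a2 was -0.12 by voom, -0.064 with the block and -0.18 without the libraries numbered 1 (-0.22 to 0.44), and Slc27a4 was -0.056 by voom, -0.073 with the block and -0.029 with unsummed tumours (-0.43 to 0.28). Between the controls, Slc27a2 was 0.00071 by voom, 0.0078 in the fit over all groups, 0.057 with the block and 0.057 without the 2-month controls 4 to 6 (-0.067 to 0.081). For the periT interaction, Fabp4 ran from -0.90 to 0.19, and Slc27a4 was 0.13 with library size alone, 0.0040 without the libraries numbered 1 and 0.054 without controls 4 to 6 (-0.11 to 0.088). For the tumour interaction Slc27a4 was -0.067 by voom, -0.046 with unsummed tumours and -0.067 without controls 1 to 3 (-0.42 to 0.29).

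Over all genes, the tumour calls were 3593, against 5482 with library size alone, 6612 in the fit over all groups and 1743 without the libraries numbered 1. Between the controls they were 1616, against 1056 in the fit over all groups and 564 without controls 4 to 6. Between tumours and periT they were 2, against 47 without the filter and 380 in the fit over all groups. For the interactions they were 223 in periT, against 534 by DESeq2, 54 in the fit over all groups and 128 without controls 4 to 6, and 385 in tumours, against 866, 484 and 28 under the same settings, 659 without the libraries numbered 1 and 95 without controls 1 to 3. Replicate numbers in the comparisons with controls name different animals, and the labels give no pairing between them. Same-number correlations were -0.268 to 0.285 at 2 months, -0.0475 to 0.364 in periT and -0.052 to 0.141 in tumours. With 3 such pairs in each comparison, these values can neither show nor exclude a pairing. The replicate block gave 6 members at 2 months, 5 in periT and 6 in tumours, and 3290 genes against 5883 at 2 months and 384 against 1616 between the controls. In the paired comparison of tumours with periT it changed no member's call.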
